A study of Mus musculus with 3 samples.

Results

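The genes of oxidative phosphorylation were examined in single-cell RNA sequencing libraries of mouse dorsal skin at postnatal day (P) 18. Members were all genes whose symbol starts with mt-, Nduf, Sdh, Uqcr or Atp5, or with Cox4i, Cox5, Cox6, Cox7 or Cox8. They numbered 122 of the 19927 genes in the matrices. Of these, 14 lie in the mitochondrial genome and encode 12 mRNAs and 2 ribosomal RNAs. The other 108 are nuclear and comprise 83 subunit genes, 12 assembly factors and 13 pseudogenes or gene copies. In all, 108 members had a count in each library, and 77 nuclear and 8 mitochondrial members reached 50 CPM (the counts of all cells in a library added up and scaled to a common library total) in at least 1 library.

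Oxidative phosphorylation makes most of the ATP of resting cells in the inner mitochondrial membrane. Complex I oxidizes NADH and complex II oxidizes succinate, complexes III and IV pass the electrons on to oxygen, and complex V, the ATP synthase, uses the proton gradient that the others build up. All of complex II is encoded in the nucleus, whereas the other complexes join nuclear subunits to a few that mitochondria encode and translate themselves, so both genomes have to supply them. In the epidermis, keratinocytes are born in a basal layer that makes keratin 14 and move outwards through spinous layers with keratin 10 to a granular layer with loricrin, where mitochondria are cleared before the cell dies and cornifies.

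Of the 3 libraries, 2 were made from controls with the genotype *Vdr* flox/flox. The remaining library, *Vdr* cKO, had the genotype *Vdr* flox/flox; Krt14cre. All mice thus carried floxed *Vdr* alleles and the cKO mice also a Cre recombinase under the *Krt14* promoter, which is active in basal keratinocytes and the HF epithelium. According to the methods, trypsin-released skin cells of 3 male mice were pooled for each library and captured in droplets. A barcode counted as a cell if it had 200 or more detected genes and no more than 20% of its counts from mitochondrial genes. This left 1480 of 2788, 1658 of 2460 and 2622 of 2782 barcodes and 18802408, 28690129 and 30954897 counts for control 1, control 2 and the cKO library. The mitochondrial limit removed 3, 4 and 1 of them. Between 20 and 28 kept cells of a library had a barcode that also occurs in another library. *Vdr*, the deleted gene, had 40.7, 35.9 and 80.8 CPM, so it was not lower in the library with the cKO label, and a count per gene cannot show whether exon 3 is present. Differences are therefore given for the library that carries the *Vdr* cKO label (the cKO-labelled library), and values are listed with control 1 first, control 2 next and this library last unless stated. With 1 such library no test of genotype can be made, and spread can be judged only from how far control 1 and control 2 differ. Intervals are exact 95% Poisson intervals and cover counting error only. Counts may include PCR copies of a molecule, and where they do the intervals are too narrow.

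The libraries differed in their makeup. Detected genes per cell, as the library median, were 377, 502 and 688.5 in control 1, control 2 and the cKO-labelled library. Counts per cell were closer, with medians at 4190, 4492.5 and 4055. The summed level of 8 basal markers was 5001, 3556 and 13520 CPM in control 1, control 2 and the cKO-labelled library, with *Krt14*, *Krt5*, *Krt15*, *Col17a1* and *Dst* over 2-fold higher than in both controls. The 6 spinous markers summed to 69422, 79681 and 52505 CPM and the 8 granular markers to 22084, 20466 and 17094 CPM. A list of 8 dissociation stress genes was at 1642, 1526 and 3831 CPM, with *Fos*, *Jun*, *Junb* and *Atf3* over 2-fold higher, and 5 erythroid genes were at 106, 464 and 62.7 CPM. Fibroblast (0.767 to 8.72 CPM), endothelial (1.39 to 4.15 CPM) and skeletal muscle (12.6 to 15.8 CPM) markers were low throughout, and 5, 4 and 6 of the 7 muscle markers had no count. Melanocyte markers were higher in the cKO-labelled library, at 11.1, 9.97 and 55.8 CPM. So were T cell markers at 34.5, 17.5 and 72.6 CPM and antigen-presenting cell markers at 168, 242 and 326 CPM. The adipocyte list went the other way, at 9.68, 10.1 and 0.226 CPM, but only *Fabp4* of its 3 genes was in the matrices. In summed counts a larger number of cells of a type and more RNA per cell cannot be told apart. Values within bins of *Krt14* are given below, and the part of the other differences in the results was not tested.

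The 3 sequences shown first mark a limit of the mitochondrial data. Stretches of the mitochondrial genome also exist as copies in nuclear chromosomes, and a read that lies wholly within a shared stretch matches the copy as well. Of all 50-base windows of *mt-Co2*, 100% also occur in another annotated transcript (GENCODE M21, GRCm38), while *mt-Cytb* shares 0%. Printed in capitals are the last window that *mt-Co2* shares with its nuclear copy *Gm28661* (chrM:7644-7693, + strand) and the last that *mt-Co3* shares with *Gm28437* (chrM:9340-9389, + strand). The last 50 bases of *mt-Cytb* (chrM:15239-15288, + strand) are in lower case because no other annotated transcript holds them. Copies outside the annotation were not searched.
mt-Co2: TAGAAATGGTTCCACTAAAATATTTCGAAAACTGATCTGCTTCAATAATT
mt-Co3: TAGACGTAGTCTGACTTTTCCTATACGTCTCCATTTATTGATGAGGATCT
mt-Cytb: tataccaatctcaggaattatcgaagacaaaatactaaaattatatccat

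Most mitochondrial mRNAs with nearly all windows shared had few counts. *mt-Co2*, a core subunit of complex IV, had 0, 6 and 1 counts in control 1, control 2 and the cKO-labelled library, and *mt-Co3* had 1, 5 and 6. A count of 0 in control 1 allows up to 0.160 CPM (3 counts). *mt-Atp6* of the ATP synthase, with 99.5% of its windows shared, had 6, 20 and 10 counts, and *mt-Nd3* of complex I, with 98.0%, had 155, 459 and 345. *mt-Cytb* of complex III, by contrast, had 34976, 37975 and 43817 counts. The nuclear copies themselves were also near 0, with *Gm10925*, the copy that shares most windows with *mt-Atp6*, at 0.266, 0.697 and 0.614 CPM. The exceptions were *mt-Atp8*, which shares 0% and had 0, 3 and 3 counts, *mt-Co1*, which shares 51.1% and all of its last 300 bases but had 8883, 18030 and 9541 counts, and *mt-Nd4*, which shares 62.2% but 0% of its last 300 bases and had 10950, 15919 and 15078 counts. *mt-Nd6*, with 0% of its windows shared, was also low, at 698, 605 and 565 counts. How shared reads were assigned is not given in the sources used here, and whether sharing lowered any of these counts was not tested. *mt-Nd4l* was not analysed here. Sums over mitochondrial mRNAs thus stand mainly for *mt-Cytb*, *mt-Nd1*, *mt-Nd2*, *mt-Nd4*, *mt-Nd5* and *mt-Co1*.

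**Figure D1:**
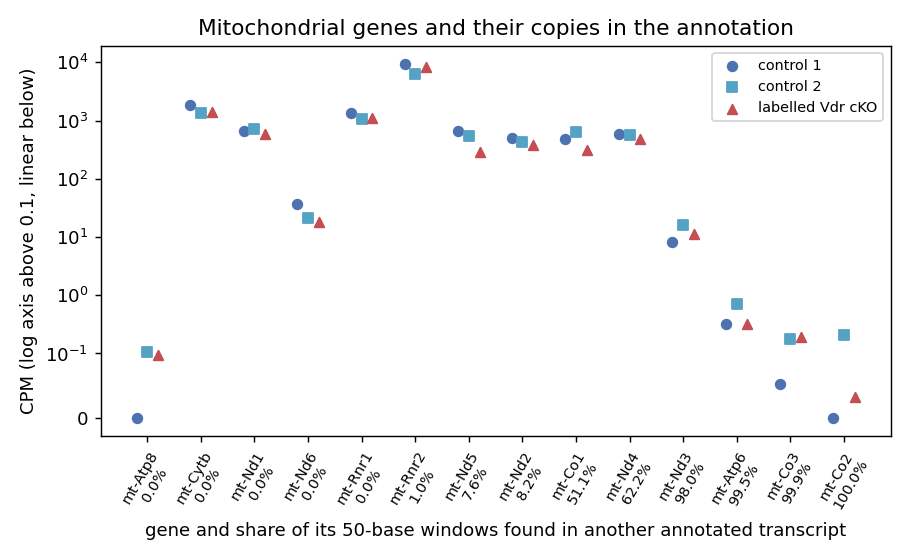
Level of each mitochondrial gene in CPM (log axis above 0.1, linear below) in the 3 libraries, with genes ordered by the share of their 50-base windows that occur in another annotated transcript. *mt-Co2*, *mt-Co3* and *mt-Atp6*, with 99.5% or more shared, lie under 1 CPM, as does *mt-Atp8* with 0%, while *mt-Cytb* lies above 1000 CPM.

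The level of the mitochondrial mRNAs was lower in the cKO-labelled library than in either control. Together they had 4789 CPM (interval 4758 to 4820) in control 1, 4235 (4211 to 4259) in control 2 and 3502 (3481 to 3523) in the cKO-labelled library. The log2 ratio to the control mean was -0.37, the ratio to the nearer control was -0.27, and the controls differed by 0.18. Among all genes at this level the median log2 ratio was 0.00. The 5 mRNAs *mt-Cytb*, *mt-Nd1*, *mt-Nd2*, *mt-Nd5* and *mt-Nd6* share at most 8.19% of their windows with other transcripts. In the last 300 bases of *mt-Nd2*, however, 31.9% of the windows are shared. The 5 mRNAs summed to 3725, 3034 and 2695 CPM. For these 5 the log2 ratio to the nearer control was -0.17, which is less than the control difference of 0.30. Under the 12 alternatives tried, the ratio for the sum of all mitochondrial mRNAs stayed between -0.24 and -0.68.

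The genes behind this sum were not equally lower. *mt-Nd5*, a proton-pumping subunit of complex I, had 651, 548 and 291 CPM in control 1, control 2 and the cKO-labelled library, a log2 ratio of -1.04 to the control mean with 1 CPM added. *mt-Co1*, the catalytic subunit of complex IV, had 472, 628 and 308 CPM and a log2 ratio of -0.83. In both genes the cKO-labelled library lay outside the range of the controls by more than the controls differed, at log2 -0.91 and -0.61 from the nearer control. *mt-Nd1* (668, 715 and 587 CPM), *mt-Nd4* (582, 555 and 487 CPM) and *mt-Nd2* (509, 427 and 382 CPM) were also lowest there, by log2 -0.16 to -0.19 from the nearer control. *mt-Nd6*, which lies on the opposite strand and overlaps *mt-Nd5*, had 37.1, 21.1 and 18.3 CPM. *mt-Cytb* did not share this order, with 1860, 1324 and 1416 CPM. With each gene counted once per cell, which removes most of the weight of repeated counts, the log2 ratios were -0.62 for *mt-Nd5* and -0.70 for *mt-Co1*.

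Mitochondrial ribosomal RNA was the largest mitochondrial group, and the cKO-labelled library lay between the controls. *mt-Rnr2*, the large ribosomal RNA, had 9478, 6262 and 8189 CPM and *mt-Rnr1*, the small one, had 1373, 1049 and 1094 CPM. Their sums were 10851, 7311 and 9283 CPM. The cKO-labelled library had 2.65 ribosomal counts for each mitochondrial mRNA count, against 2.27 and 1.73 in the controls.

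Nuclear members were higher in the cKO-labelled library by a small amount that depended on scaling. Their sum was 13234 CPM (13182 to 13286) in control 1, 15046 (15001 to 15091) in control 2 and 17019 (16973 to 17065) in the cKO-labelled library, a log2 ratio of 0.27 to the control mean. The excess over control 2 was 0.18, and the controls differed by 0.19. With edgeR's TMM factors the same sums were 13693, 15820 and 15644 CPM, so the cKO-labelled library fell between the controls, and DESeq2's median-of-ratios factors gave the same order. These factors shift the median log2 ratio of all genes to -0.18 and -0.21, and every gene by about as much. Counting each gene once per cell gave sums of 21665, 22213 and 22464 CPM, a log2 ratio of 0.034.

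**Figure D2:**
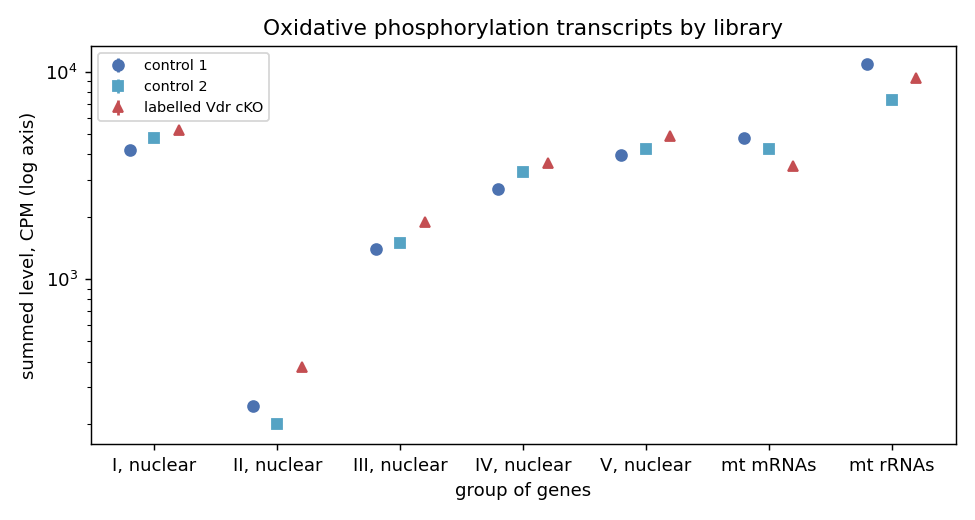
Summed level (CPM, log axis) of the nuclear subunits of complexes I to V and of the mitochondrial mRNAs and rRNAs, with 1 point for each library and exact Poisson intervals that are smaller than most symbols. The library labelled *Vdr* cKO is the highest for every nuclear complex in CPM, and the lowest for the mitochondrial mRNAs at 3502 CPM. *Ndufa4* and *Ndufa4l2* are in none of these sums.

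All 5 complexes had the cKO-labelled library highest in CPM, and complex II most of all. The sums by complex leave out *Ndufa4* and *Ndufa4l2*, which together had 553, 839 and 722 CPM. *Ndufa4*, known as a subunit of complex IV, was highest in control 2, so adding it would bring complex IV nearer to control 2. The 37 nuclear complex I subunits summed to 4177, 4774 and 5256 CPM (log2 ratio 0.23), the 4 of complex II to 245, 200 and 375 CPM (0.75), the 8 of complex III to 1402, 1497 and 1894 CPM (0.39), the 15 of complex IV to 2705, 3296 and 3622 CPM (0.27) and the 17 of complex V to 3970, 4225 and 4879 CPM (0.25). For complexes II, III and V the distance to the nearer control, 0.62, 0.34 and 0.21, was larger than the difference between the controls, 0.29, 0.09 and 0.09. Complexes I and IV lay 0.14 from the nearer control, within the control difference of 0.19 and 0.28. These distances are for scaling by total counts. With TMM factors the cKO-labelled library lay between the controls for complexes I and IV. For complex V it was then nearly level with control 2. Counted once per cell, the ratio was -0.024 for complex IV and -0.0084 for complex V, against 0.33 for complex II.

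With all counted mitochondrial mRNAs included, the balance of mitochondrial and nuclear transcripts was lowest in the cKO-labelled library. There were 0.362 and 0.281 mitochondrial mRNA counts for each nuclear member count in the controls and 0.206 in the cKO-labelled library. This ratio does not depend on the library total. It was lower by log2 0.81 than in control 1 and by 0.45 than in control 2, while the controls differed by 0.36. It remained lower under each of the 9 alternatives that apply to it, from -0.45 to -0.87. None of these leaves out *mt-Co1* and *mt-Nd4*, which share much of their sequence with copies. The 5 mRNAs with at most 8.19% of their windows shared had 70048, 87058 and 83420 counts, against 248829, 431669 and 526829 of the nuclear members. By these counts the balance of the 5 alone was also lowest in the cKO-labelled library. The distance of that library to control 2, the nearer control, was smaller than the difference between the controls.

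At the level of single genes, few nuclear members were far apart. A gene was counted when it had at least 50 CPM in a library and the cKO-labelled library lay over 2-fold above or below both others, which held for 5.03% of 3919 genes. Of the 77 nuclear members 1 was counted, *Ndufa4l2*, and of the 8 mitochondrial members none. Higher genes made up 3.88% of all genes and lower genes 1.15%. With control 2 in the same place 2 members were counted, *Atp5l* and *Ndufs5*, both higher, where 1.74% of all genes were counted, 0.23% as higher and 1.51% as lower. With control 1 in that place 0 members were counted, against 1.68% of all genes, 0.944% higher and 0.74% lower. At any fold, 54 of the 77 nuclear members (70.1%) were higher in the cKO-labelled library than in both controls, against 38.4% of all genes, and 1 was lower than both, against 35.9%. With TMM factors the higher members were 37.7% against 25.8% of all genes, and counting a gene 1 time in a cell gave 46.8% and 37.1%. Control 1 was below both other libraries in 51 of the 77 (66.2%), against 30.7% of all genes, and above both in 3, against 34.5%. Control 2 was above both in 20, against 27.1%, and below both in 25, against 33.4%.

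*Ndufa4l2* is related to *Ndufa4* and known as a gene that low oxygen induces. It had 103 CPM (98.9 to 108) in control 1, 100.1 (96.5 to 103.8) in control 2 and 250.2 (244.7 to 255.9) in the cKO-labelled library, a log2 ratio of 1.29. The controls were alike and the cKO-labelled library lay far above them. Its counts were spread over 674 cells of that library, the 10 highest of which held 14.1% of them, and over 154 and 175 cells of the controls, where the 10 highest held 40.2% and 39.4%. The difference was present in each of 4 bins of *Krt14* with limits common to the libraries, with 299 against 99.7 and 84.1 CPM in cells without *Krt14* and 237 against 79.5 and 48.5 CPM in the highest bin. It was smaller in the middle bins, with 285 against 122 and 148 CPM and 208 against 103 and 103 CPM. The log2 ratio was lowest, at 0.70, with each gene counted once per cell, where *Ndufa4l2* was no longer over 2-fold apart. *Ndufa4* itself, named for complex I but known as a subunit of complex IV, had 450, 739 and 472 CPM, with control 2 above the others.

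The next in order by distance to the nearer control were *Cox7a2l*, *Ndufa1*, *Uqcrh* and *Sdhb*. *Cox7a2l*, which helps to join complexes III and IV into supercomplexes, had 126, 115 and 238 CPM, and *Ndufa1*, a small membrane subunit of complex I, had 54.7, 57.5 and 108 CPM. *Sdhb*, the iron-sulfur subunit of complex II, had 88.3, 69.7 and 157 CPM, and *Uqcrh*, the hinge protein of complex III, had 156, 154 and 279 CPM. In these genes the cKO-labelled library was highest, at a log2 distance of 0.83 to 0.92 from the nearer control. At the low end of the same order *Atp5l*, the g subunit of the ATP synthase, was the only member below both controls, at 48.1, 99.4 and 47.7 CPM and a distance of -0.01. The other 22 members lay between the controls and tie at 0.

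The other complex II subunits followed *Sdhb* in part. *Sdhc*, a membrane anchor, had 82.8, 55.2 and 114 CPM, and *Sdhd*, the other anchor, had 14.1, 21.5 and 39.9 CPM. *Sdha*, the flavoprotein that oxidizes succinate, had 59.5, 54.0 and 63.4 CPM and hardly differed. *Sdhb* remained higher in each of the 4 common *Krt14* bins. Averaging CPM over cells, so that each cell had equal weight, gave a log2 ratio of 0.20 for complex II where the sum gave 0.75. Among the 12 assembly factors, which help to build complexes I and II and stayed under 50 CPM, *Sdhaf2*, *Sdhaf4* and *Ndufaf3* were over 2-fold higher than in both controls, with *Sdhaf2*, which attaches the cofactor to SDHA, at 12.7, 19.8 and 48.8 CPM. Of all genes, 9.41% at 10 CPM or more and 10.5% without a limit on level were over 2-fold apart.

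**Figure D3:**
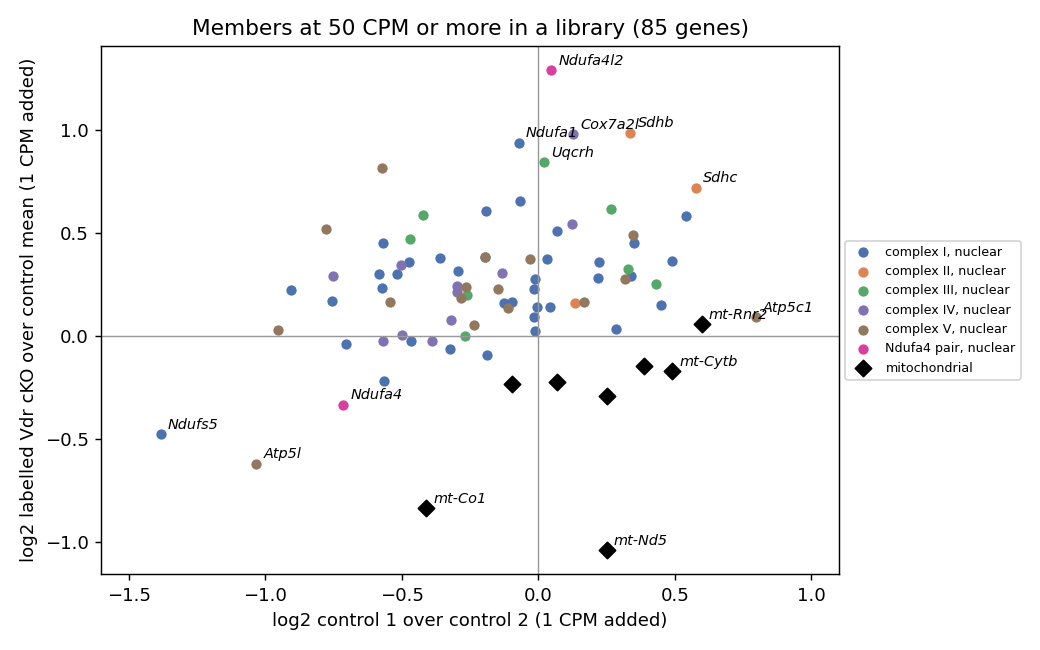
Each point is 1 of the 85 members at 50 CPM or more, with the log2 ratio of control 1 to control 2 on the x axis and of the cKO-labelled library to the control mean on the y axis (1 CPM added). Most nuclear members lie a little above 0 on the y axis, *Ndufa4l2* is highest at 1.29, and *mt-Nd5* is lowest at -1.04.

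Where a subunit has a general and a tissue-restricted isoform, nearly all counts belonged to the general one. *Cox4i1*, the most abundant nuclear gene of complex IV, had 569, 522 and 795 CPM, and its relative *Cox4i2* had 0, 0 and 2 counts. *Cox6b1* had 431, 564 and 489 CPM, against 0, 0 and 55 counts of *Cox6b2*, known from testis. The muscle isoform *Cox7a1* had 0, 0 and 14 counts beside 167, 282 and 275 CPM of *Cox7a2*, and *Cox8b* had 15, 1 and 0 counts beside 161, 177 and 209 CPM of *Cox8a*. *Cox6a1* had 294, 363 and 389 CPM, and *Cox6a2* and *Cox8c* were not analysed here. In CPM per kb of transcript, as a mean of the libraries, *mt-Cytb* was at 1340, *Cox4i1* at 822 and *Ndufa4* at 907. *Ndufb8*, the most abundant nuclear gene of complex I in CPM (276, 277 and 305 CPM), was at 421. Division by length assumes that counts rise with transcript length, which was not tested for these droplet libraries. The most abundant of complex III was *Uqcrb*, at 269, 324 and 296 CPM, and of complex V *Atp5b*, the catalytic subunit, at 632, 507 and 690 CPM. The 13 pseudogenes and copies reached at most 2.16 CPM, so few reads were assigned to them, and how reads shared with their parent genes were divided is not known.

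Cells were next ranked within each library by *Krt14*, *Krt10* or *Lor* and divided into 4 bins, which follow the course of keratinocyte differentiation in outline. Cells without *Krt14* formed its lowest bin in the controls, with 884 and 1001 cells. The cKO-labelled library was divided into 4 nearly equal bins, the lowest with 656 cells. The nuclear members were higher in *Krt14*-rich cells in each library. They had 12312 CPM in the lowest and 16275 CPM in the highest *Krt14* bin of control 1, 14325 and 18724 CPM in control 2, and 14840 and 18644 CPM in the cKO-labelled library. The log2 ratio of highest to lowest bin was 0.37 ± 0.04 (SD, n = 3 libraries). The ratio was -0.21 ± 0.13 for *Krt10* and -0.32 ± 0.13 for *Lor*. In these sums both were negative in each library, but control 1 turned slightly positive when cells were weighted in other ways, as given below. Among the 2748 genes at 50 CPM or more in each library, the median ratio was -0.14 for *Krt14*, 0.15 for *Krt10* and -0.33 for *Lor*. The *Lor* ratio of the nuclear sum was thus close to that of a typical gene. With *Lor* the median was -0.43 for 72 nuclear members and -0.37 for 8 mitochondrial members.

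The mitochondrial mRNAs had the same direction with a wider range. Over the *Krt14* bins they went from 3887 to 9463 CPM in control 1, from 3919 to 5666 CPM in control 2 and from 2802 to 4547 CPM in the cKO-labelled library, a log2 ratio of 0.84 ± 0.39 (SD, n = 3). The ratio was -0.79 ± 0.20 for *Krt10* and -0.49 ± 0.16 for *Lor*. In all 12 bins of the 3 markers the cKO-labelled library was below both controls in mitochondrial mRNA, and in 11 of 12 it was above both in nuclear members, the exception being the highest *Krt14* bin. The 3 markers divide the same cells of the same libraries, so these 12 bins are not separate observations. When the limits of the *Krt14* bins were made common to the libraries, a choice made after seeing the data, mitochondrial mRNA was below both controls in 4 of 4 bins, with 4451 CPM against 9449 and 6515 CPM in the highest. Nuclear members were above both in 3 of 4. With these bins given equal weight, the log2 ratio to the control mean was -0.68 for mitochondrial mRNA and 0.12 for nuclear members.

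The size of these gradients, and in part their direction, depended on how cells were weighted. Depth differed between bins, and cells of the lowest *Lor* bin had a median of 8008, 16575 and 7201 counts in control 1, control 2 and the cKO-labelled library, against 3762, 3485 and 3928 in the highest. With each cell thinned to 1000 counts before ranking, the nuclear ratio was 0.14 for *Krt14*, -0.062 for *Krt10* and -0.085 for *Lor*, and the mitochondrial ratio 0.41, -0.36 and -0.10. Thinning also makes the ranking of the cells less certain. In thinned cells of control 1 the nuclear ratio was 0.070 for *Krt10* and 0.015 for *Lor*, and the mitochondrial ratio for *Lor* was 0.040, so the direction common to the libraries was lost. With equal weight for each cell, control 1 was at 0.049 for nuclear members over *Krt10* and at 0.11 for mitochondrial mRNA over *Lor*. Over *Krt14* the nuclear ratio stayed positive in each library under these alternatives, and over *Krt10* the mitochondrial ratio stayed negative. With each gene counted once per cell, the mean mitochondrial ratio over *Lor* bins changed sign, to 0.12, and the mitochondrial ratio over *Krt14* was -0.014 in the cKO-labelled library. Cells were also ranked by mitochondrial mRNA itself. The highest of 4 equal bins had log2 0.39, 0.41 and 0.37 more nuclear OXPHOS transcripts than the lowest bin. Cytosolic ribosomal protein genes rose as well, by 0.11, 0.20 and 0.47, which in the cKO-labelled library was more than the nuclear members. All genes and other weightings were not examined for this ranking.

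**Figure D4:**
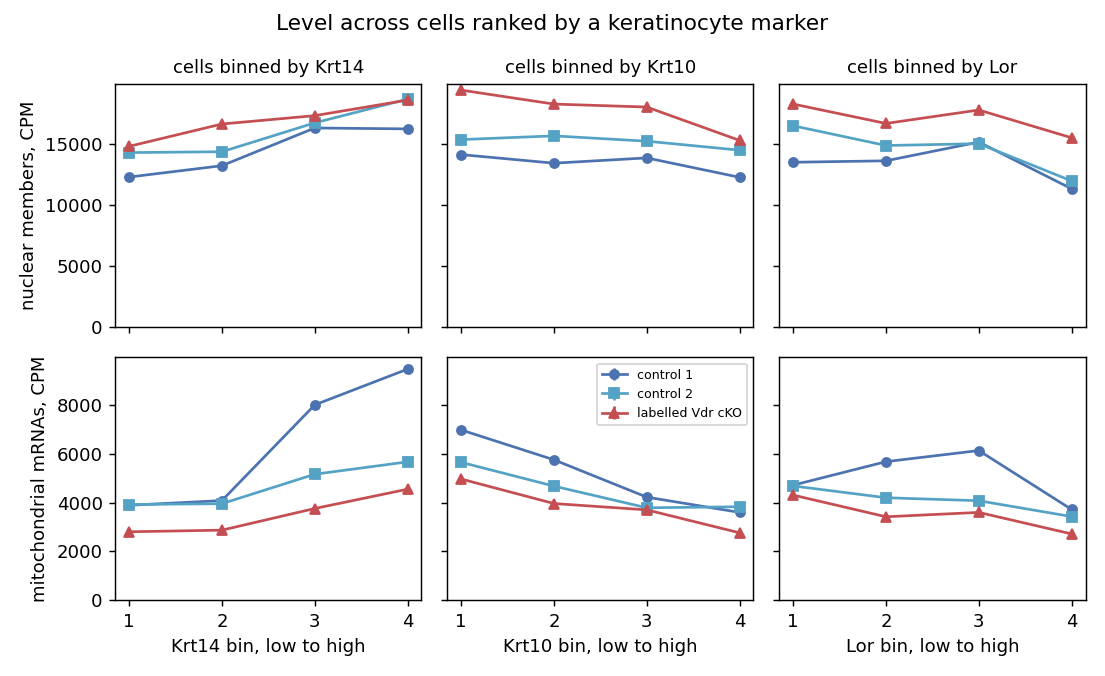
Level of the nuclear members (upper row) and the mitochondrial mRNAs (lower row) in CPM across 4 bins of cells ranked by *Krt14*, *Krt10* or *Lor*, with 1 line per library and exact Poisson intervals. Both groups are higher at high *Krt14* and lower at high *Krt10* and *Lor*, where for *Lor* the median of all genes was also lower (log2 -0.33). The mitochondrial line of the cKO-labelled library is the lowest in all 12 bins, which divide the same cells by 3 markers.

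Single members were counted where they had at least 50 CPM in each library. Of 72 nuclear members, 41 were higher in the highest than in the lowest *Krt14* bin in all 3 libraries and 4 were lower, whereas 20.6% of all genes were higher and 27.4% lower. For *Krt10* 8 were higher and 28 lower, against 30.8% and 17.1% of all genes. For *Lor* 2 were higher and 44 lower, against 16.6% and 41.0%. Of the 8 mitochondrial genes 7 were higher with *Krt14* (*mt-Rnr1* differed between libraries), 8 were lower with *Krt10* and 5 with *Lor*. *mt-Cytb* had 1483 and 3975, 1194 and 2076, and 1114 and 1916 CPM in the lowest and highest *Krt14* bins of the 3 libraries. By complex, the nuclear subunits of complex II had the steepest gradients, with mean log2 ratios of 0.86 ± 0.18 for *Krt14*, -0.66 ± 0.24 for *Krt10* and -0.64 ± 0.20 for *Lor*. Those of the other complexes were 0.29 to 0.46, -0.28 to -0.19 and -0.43 to -0.30. These means did not hold in every library, since complex III over *Krt14* was at -0.02 in control 1. Complex I over *Krt10* was at 0.005 in control 2. Here too the complex IV sum leaves out *Ndufa4*, which rose with *Lor*, as given below. The cytosolic ribosomal protein genes, given for comparison, had 0.33 ± 0.11, -0.02 ± 0.49 and -0.57 ± 0.19.

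The genes for the c subunit of the ATP synthase went different ways. The c subunits form the rotor ring that protons turn, and *Atp5g1*, *Atp5g2* and *Atp5g3* encode the same mature protein behind different import signals. *Atp5g3* had 689, 543 and 597 CPM in the lowest *Krt10* bin of control 1, control 2 and the cKO-labelled library and 234, 247 and 263 CPM in the highest, the lowest ratio of any nuclear member (log2 -1.29). *Atp5g1* had 142, 154 and 271 CPM in the lowest bin and 281, 356 and 303 CPM in the highest (mean log2 0.78), a difference that was small in the cKO-labelled library, at 0.16. For each *Atp5g3* count there were thus 0.206, 0.284 and 0.453 *Atp5g1* counts in the *Krt10*-poor cells and 1.20, 1.44 and 1.15 in the *Krt10*-rich cells. Over the *Krt14* bins *Atp5g3* had the largest ratio of any nuclear member (1.21), with 939, 487 and 465 CPM in the highest bin against 266, 241 and 268 CPM in the lowest, and *Atp5g1* had no common direction. The mean over libraries kept its sign under the 10 alternatives tried for *Atp5g3* in both rankings and for *Atp5g1* by *Krt10*. In thinned cells *Atp5g1* was at 0.58 and 0.55 in the controls but at -0.015 in the cKO-labelled library. *Atp5g2* was low, at 7.87, 10.3 and 8.5 CPM, and the whole-library levels of *Atp5g1* (242, 294 and 305 CPM) and *Atp5g3* (346, 308 and 367 CPM) differed little.

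*Ndufa4* ran against the other members. It had 269, 474 and 262 CPM in the lowest *Lor* bin and 669, 1078 and 641 CPM in the highest, a log2 ratio of 1.31, 1.18 and 1.29 in the 3 libraries, and it was the largest of the 2 nuclear members that were higher with *Lor* in every library. The other was *Ndufb7*, a complex I subunit, at a mean of 0.30. Over the *Krt14* bins *Ndufa4* was lower in the highest bin, with 173, 672 and 315 CPM against 504, 767 and 539 CPM. The *Lor* ratio stayed between 0.66 and 1.35 under the 10 alternatives. Its relative *Ndufa4l2* was higher in *Krt10*-rich cells of the controls, with 142 and 87.8 CPM against 61.2 and 24.4 CPM, and had 278 against 269 CPM in the cKO-labelled library. This contrast depended on weighting, since in thinned cells the log2 ratios were 0.044, 1.21 and 0.73, and with equal weight for each cell they were 0.040, 1.56 and 0.72.

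**Figure D5:**
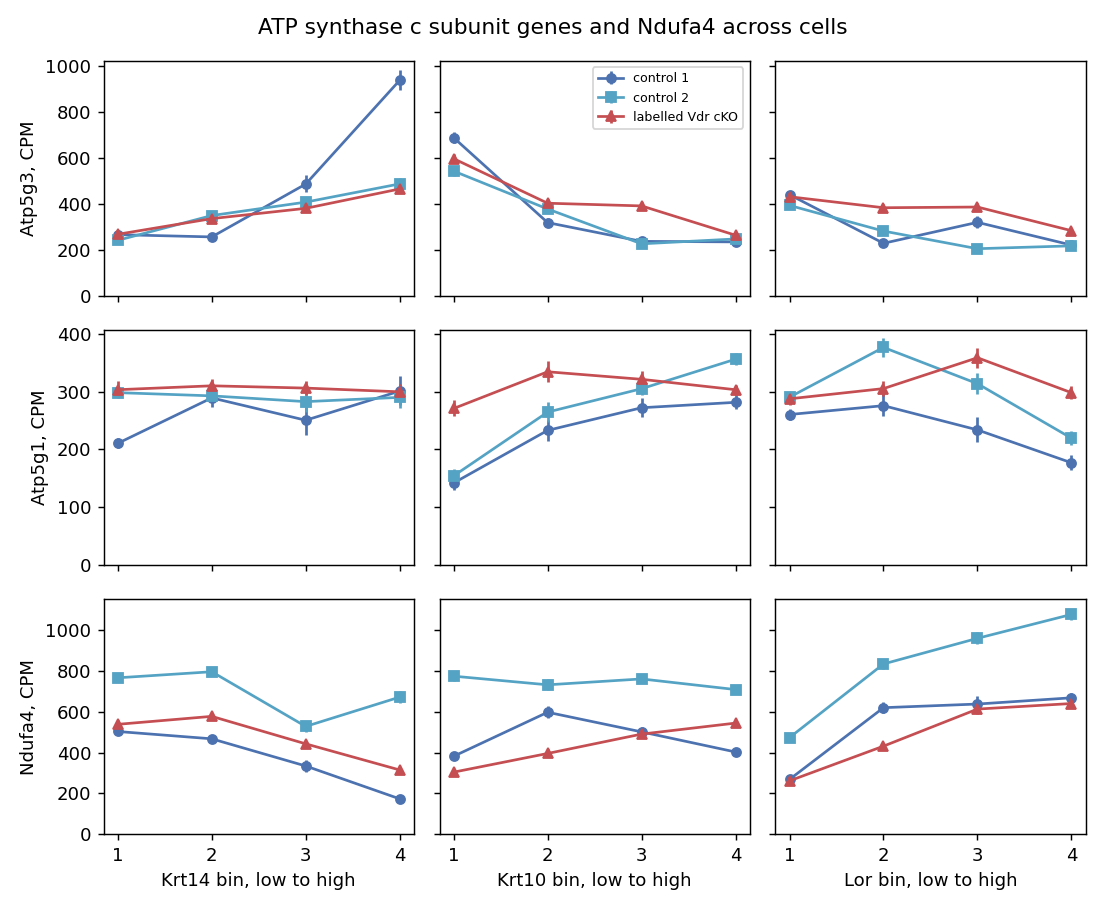
Level of *Atp5g3*, *Atp5g1* and *Ndufa4* in CPM across 4 bins of cells ranked by *Krt14*, *Krt10* or *Lor*, with 1 line per library and exact Poisson intervals. *Atp5g3* is highest where *Krt10* is lowest, *Atp5g1* is lowest there in each library, and *Ndufa4* is highest in the highest *Lor* bin.

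Other members at the ends of the order were mostly complex I subunits, which also made up 37 of the 77 nuclear members at 50 CPM or more in a library. With *Krt14*, *Ndufa2* and *Ndufs4* came after *Atp5g3*, at mean log2 ratios of 1.11 and 1.03, and *Uqcrfs1*, the Rieske protein of complex III, and *Cox5a* were lower, at -0.34 and -0.25. In the summed counts, with *Krt10*, *Ndufa1* (-1.18) and *Sdha* (-1.03) were lowest after *Atp5g3*, and *Cox5a* (0.41) was higher. *Ndufa1* had 97.1, 85.3 and 175 CPM in the lowest *Krt10* bin and 42.6, 48.6 and 58.1 CPM in the highest. With *Lor*, the core subunits *Ndufs7* (-1.21) and *Ndufs8* (-1.13), which carry iron-sulfur clusters, and *Ndufv3* (-0.99) were lowest. These members were chosen for a sign shared by the 3 libraries in the summed counts. *Ndufa1* lost it in thinned cells, where control 1 was at 0.51, and with equal weight for each cell, where it was at 0.46. *Ndufs7* stayed negative over *Lor* in each library but was weaker, at a mean of -0.62 in thinned cells. With equal weight for each cell the mean was -0.69, and with each gene counted once per cell -0.17. There the cKO-labelled library was at only -0.093 and -0.047. Apart from *Ndufa1*, *Ndufs7* and *Atp5g3*, the members in this paragraph were not examined under other weightings.

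Promoters were examined because nuclear OXPHOS genes are known targets of NRF1, of ETS factors such as GABP, and of YY1. RefSeq promoters (250 bases before to 50 after the start, GRCm38.p6) were found for 68 of the 83 nuclear subunit genes. The motifs were searched on both strands. An NRF1 motif (GCGCA, any base, then GCGC) was present in 17 of them (25%), in 5.19% of 27025 genes with a promoter and in 13.4% of those at 50 CPM or more. AAGATGGC, the YY1 motif, was present in 10 (14.7%), against 3.19% and 5.87%. CCGGAAG, an ETS motif, was in 25%, against 9.93% of all genes but 22.6% of those at 50 CPM or more. CCAAT was in 42.6%, against 41.1% of all genes and 42.0% of those at 50 CPM or more, and TATAAA in 10.3%, against 15.7% and 9.44%. None of these letter strings contains another. The promoters below are shown with NRF1 and YY1 motifs in capitals. *Atp5g3* (chr2:73911277-73911576, - strand) and *Atp5g1* (chr11:96075582-96075881, - strand) are the pair whose mean ratios over *Krt10* had opposite signs. The ratio of *Atp5g1* was small in the cKO-labelled library. Of the pair *Atp5g3* holds an NRF1 motif and *Atp5g1* holds neither motif. Whether a motif bears on these courses was not tested. *Ndufs6* (chr13:73328433-73328732, - strand), a complex I subunit gene, holds both.
Atp5g3: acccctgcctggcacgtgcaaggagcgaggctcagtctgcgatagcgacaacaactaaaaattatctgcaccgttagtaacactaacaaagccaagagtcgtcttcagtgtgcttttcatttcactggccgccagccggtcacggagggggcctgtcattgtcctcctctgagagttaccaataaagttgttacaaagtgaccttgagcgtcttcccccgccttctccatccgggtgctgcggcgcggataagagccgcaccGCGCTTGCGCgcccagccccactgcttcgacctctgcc
Atp5g1: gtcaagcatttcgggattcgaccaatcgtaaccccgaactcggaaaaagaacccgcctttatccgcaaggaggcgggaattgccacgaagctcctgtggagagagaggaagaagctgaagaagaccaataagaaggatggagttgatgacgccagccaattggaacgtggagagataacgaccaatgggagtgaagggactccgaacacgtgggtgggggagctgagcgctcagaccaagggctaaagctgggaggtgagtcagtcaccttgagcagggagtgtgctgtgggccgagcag
Ndufs6: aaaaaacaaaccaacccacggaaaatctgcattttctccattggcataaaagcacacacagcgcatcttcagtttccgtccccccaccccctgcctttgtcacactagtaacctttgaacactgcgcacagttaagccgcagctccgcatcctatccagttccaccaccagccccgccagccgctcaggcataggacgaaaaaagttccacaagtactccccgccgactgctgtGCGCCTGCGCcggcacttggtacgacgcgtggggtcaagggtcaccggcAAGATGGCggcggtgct

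Electron carriers, further assembly factors, regulators and ribosomal proteins lie outside the naming rule and were examined as lists. Of 5 electron carriers and links, 2 were higher in the cKO-labelled library than in both controls and 2 were lower, with cytochrome c (*Cycs*) at 59.4, 90.6 and 53.3 CPM. Of the 2 higher ones *Cyc1* was nearly level with control 1, at 120.57, 108.47 and 120.95 CPM. Being outside the naming rule, *Cyc1* is in none of the sums by complex. Of 22 further assembly factors 3 had 50 CPM, and 1 of them, *Cox14*, was higher than in both (93.1, 124 and 151 CPM). Of all genes at 50 CPM or more, 38.4% were higher than in both controls and 35.9% lower. Among 41 mitochondrial ribosomal protein genes at that level, 20 were higher than in both and 5 lower, with a median log2 ratio of 0.20. Of 17 regulators of mitochondrial transcription and biogenesis 3 reached 50 CPM and none lay outside the range of the controls. The level of *Tfam*, the packaging factor of mitochondrial DNA, was 16.9, 14.8 and 29.9 CPM. At 50 CPM or more none of the genes in these lists was over 2-fold apart. The cytosolic ribosomal protein genes (symbols Rpl or Rps and a digit) were higher than in both controls in 69 of 92, with a median of 0.46.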

How the data were processed

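The authors deposited raw counts from droplet sequencing of P18 dorsal epidermal and HF cells, given for each gene and barcode, 1 matrix per library. The labels name the build mm10, while the aligner, the annotation and the treatment of PCR copies and of reads with several places are not given in the sources used here. CPM is the sum of a gene's counts in the kept cells scaled to a common library total. The log2 ratio of a single gene has 1 CPM added to each value, and that of a sum of genes has none. Doublets were not called or removed. Barcodes shared between libraries were kept.

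For bins, cells were ranked by the CPM of *Krt14*, *Krt10* or *Lor* within a library. Cells without a count formed the lowest of 4 bins where they were at least 25% of the cells, with the rest divided equally, and otherwise 4 equal bins were made. The mean and SD were taken over the 3 libraries. No test was made, because cells are not replicates and 1 library carries the cKO label.

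Members and lists were chosen with earlier results of these data known. Named genes were the mitochondrial genes, the complex II subunits, nuclear members over 2-fold apart, the 5 highest and 5 lowest by distance to the nearer control, the most abundant nuclear gene of each complex, isoform groups, and for bins the 3 largest and 3 smallest ratios of a shared sign. The other pathway genes were named after their values were seen.

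Alternatives were other limits for cells, totals and scaling factors (edgeR 4.0.16 TMM, DESeq2 1.42.0 median-of-ratios), the mean of each cell's CPM, each gene counted once per cell, thinning to 1000 counts, 5 bins, other limits for level and fold, and leaving out each control. Bins of *Krt14* with common limits and removal of shared barcodes were added after seeing the data. The count of genes apart and the bins were tested on simulated data. The simulated counts held Poisson error only and no spread between libraries, so they bear on the calculation and not on the spread of real libraries. Python 3.11.15, numpy 2.4.6, scipy 1.17.1, pandas 2.3.3, R 4.3.3 and matplotlib 3.10.9 were used. Gene positions and transcript sequences are from GENCODE M21 of GRCm38.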

Additional observations from a re-analysis of the deposited data

How the results depend on the processing

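No paired analysis was possible because the control and cKO groups share a single replicate number. All values here are log2 ratios unless called counts, and the cause of each move was not tested unless stated.

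Between libraries, the ratio of mitochondrial to nuclear counts moved by less than the SD of the controls under every alternative. For the alternatives that leave out 1 control this held by construction, because the SD comes from the same 2 controls. Mitochondrial mRNA was -0.24 with stricter cells (more than 300, fewer than 4000 genes, mitochondrial share below 5%), -0.55 with TMM factors, -0.58 with median-of-ratios factors, -0.65 as the mean of each cell's CPM and -0.68 with common *Krt14* bins. Nuclear members were at 0.084, 0.054 and 0.12 with TMM, median-of-ratios and common *Krt14* bins, and at 0.034 with each gene counted once per cell. Mitochondrial rRNA was -0.55 when counted once per cell. Without control replicate 1 or 2 the values were -0.27 and -0.45 for mitochondrial mRNA, 0.34 and -0.23 for mitochondrial rRNA, 0.18 and 0.36 for nuclear members and -0.45 and -0.81 for the ratio. Counted once per cell, complex IV (-0.024), complex V (-0.0084) and *Atp5b* (-0.11) reversed.

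The count of members over 2-fold apart was 1. Counted once per cell it was also 1, but the member was *Sdhaf2* and not *Ndufa4l2*. It became 2 with the stricter limits for cells (*Sdhaf2*) and with either scaling factor (*mt-Nd5*), 4 from 10 CPM (9.41% of all genes), 5 without a limit (10.5%), 8 at 1.5-fold (14.2%), and 7 and 3 without control replicate 1 and 2 (9.27% and 10%), the last 5 being weaker criteria by construction.

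Across bins, thinning gave 0.14, -0.062 and -0.085 for nuclear members over *Krt14*, *Krt10* and *Lor*, and 0.41, -0.36 and -0.10 for mitochondrial mRNA. The mean of each cell's CPM gave 0.17 (*Krt14*), -0.063 and -0.10, and 0.34, -0.34 and -0.065. Once per cell gave 0.11 (*Krt14*) and -0.059 (*Lor*), and 0.072, -0.37 and, reversed, 0.12. Without control replicate 1 or 2 nuclear values were 0.36 to 0.37, -0.27 to -0.21 and -0.35 to -0.25, and mitochondrial values 0.61 to 0.99, -0.90 to -0.70 and -0.56 to -0.50. Low counts set the limit for assembly factors and for isoforms under 3 counts.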

Other observations

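Sources of fuel and exchange for the respiratory chain were also examined. Of 9 glycolysis genes at 50 CPM or more, 7 were higher in the cKO-labelled library than in both controls and 1 was lower, where 38.4% and 35.9% of all genes were. *Tpi1*, triose phosphate isomerase, had 89.1 and 104 CPM in the controls and 153 CPM in that library. *Slc2a1*, the glucose transporter GLUT1, was under that level, at 4.20, 3.73 and 19.1 CPM. Lactate dehydrogenase (*Ldha*) differed little, with 239, 235 and 245 CPM.

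Of 7 citric acid cycle genes at 50 CPM or more, 4 were higher in the cKO-labelled library than in both controls and none was lower, against 38.4% and 35.9% of all genes. *Cs*, citrate synthase, lay between the controls at 253, 210 and 220 CPM, and *Suclg1* was at 57.0, 66.5 and 80.4 CPM. All 5 carriers and pores at that level were higher there than in both controls, against the same 38.4%. Among them were *Slc25a5*, an exchanger of ADP and ATP, at 530, 359 and 672 CPM, and *Vdac2*, a pore of the outer membrane, at 78.6, 76.9 and 138 CPM. The genes were named after their values were seen, and the direction of single genes under other scalings was not tested.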
